A study of Mus musculus with 4 samples.

Results

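The genes described here encode the proteasome, and they were chosen by symbol alone: every row of the count table whose symbol starts with Psm, a letter from a to g and a digit, without the pseudogene suffix -ps. This gave 50 of the 24421 genes in the table. One of them, Psmc3ip, shares only its name with the family and encodes a homologous recombination cofactor, which leaves 49 genes of known proteasome subunits, activators, inhibitors and assembly factors. All 50 passed the filter on low counts, so every member was tested.

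RNA was sequenced from LSK cells, the lineage-negative, Sca-1-positive and Kit-positive cells of mouse bone marrow in which stem cells and early progenitors are found. There were 2 libraries from Zfp521 knockout mice (Zfp521-/-, KO) and 2 from control littermates labelled wild type (WT). Zfp521 encodes a zinc finger transcription cofactor. Neither the mice's age nor how the allele was made is stated. No label says that the samples of a group came from separate animals, so each p-value measures the spread between 2 sorted samples. In KO that spread may be technical. The 2 WT samples differed in Xist counts, given below, so their spread is not technical alone.

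The proteasome degrades proteins that carry ubiquitin chains. Its barrel-shaped core has outer rings of alpha subunits and inner rings of beta subunits, some of which cut the substrate, while a regulatory particle made of a base with an ATPase ring and a lid recognises, unfolds and feeds the substrate in. In blood cells, part of the core carries the exchanged catalytic subunits of the immunoproteasome, whose peptides serve antigen presentation by major histocompatibility class I, and dividing progenitors depend on the proteasome to remove cyclins and other regulators.

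Library totals ran from 17787425 to 29863594 counts, and the KO libraries were the shallower ones. Levels are given as CPM, counts scaled to a common library size after TMM adjustment, and 3 counts equal 0.108 to 0.152 CPM, a limit for counting error alone. The targeted gene was lower in both KO libraries, with 308 and 215 counts of Zfp521 against 1561 and 1429 in WT (log2 fold change -2.19, adjusted p = 4.91e-04). Xist had 606 counts in WT replicate 2 and between 160613 and 230977 in the other libraries. The 2 WT samples were therefore not the same animal or pool sampled again. The part of this difference in the results was not tested. The LSK markers Kit (617 to 708 CPM) and Ly6a (36.9 to 67 CPM) were present in every library, and the red cell globin genes Hba-a1 and Hbb-bt were at 0 counts throughout.

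Of the 50 members, 5 fell at an adjusted p under the threshold of 0.05 (edgeR's quasi-likelihood test): the core subunit genes Psma1, Psma5, Psmb5 and Psmb7 and the ATPase gene Psmc4, each by 1.69-fold to 1.94-fold. None rose. Among all 14140 genes tested, 3.01% were called lower and 3.77% higher. The median log2 fold change of the members was -0.47, beside 0.02 for all genes tested, and 43 of the 50 had a fold change below 0, beside 48.8% of all genes. Both KO libraries lay below both WT libraries for 33 members, beside 27.6% of all genes, and above them for 3 members, beside 28.8%. At an unadjusted p under 0.05, 24 members were lower and 2 higher, beside 11.4% and 13.1% of all genes; DESeq2 called 13 members lower and none higher, beside 5.7% and 6% of its tested genes.

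**Figure D1:**
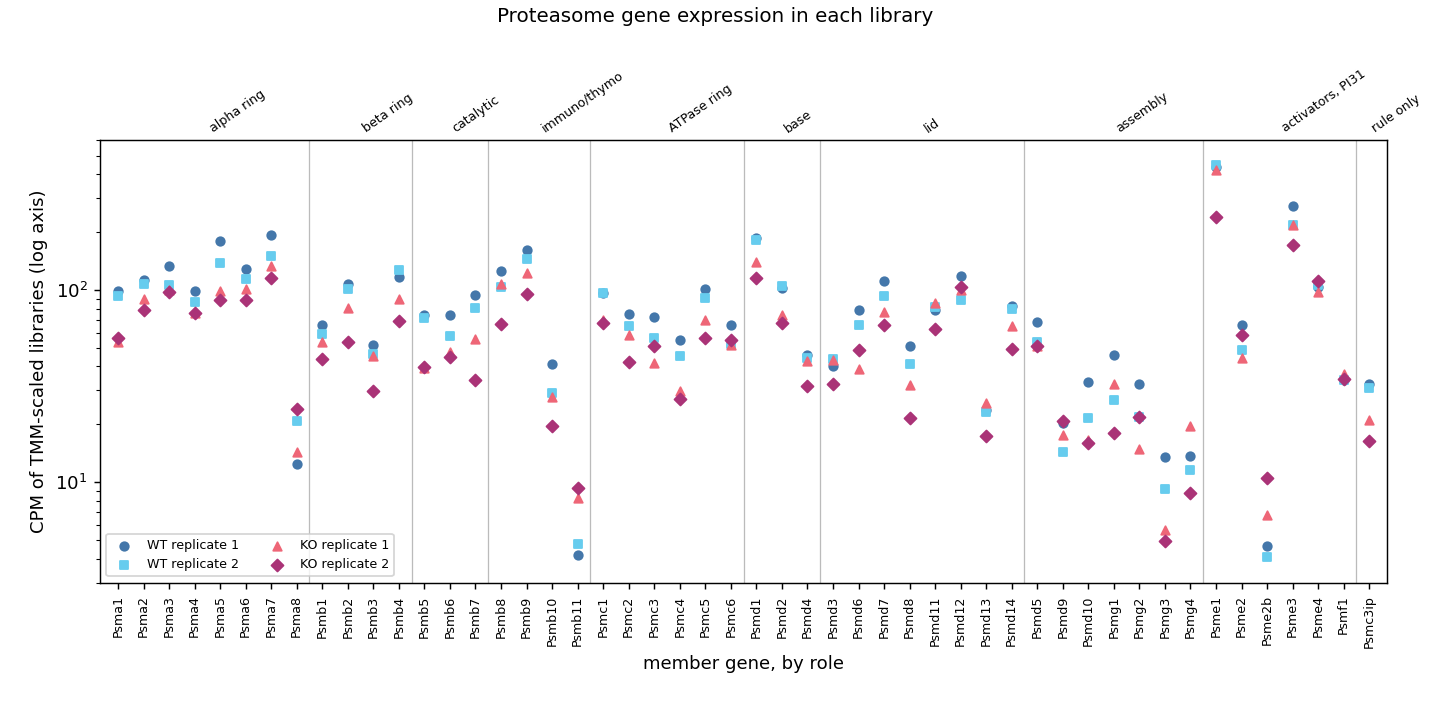
Expression of the 50 members in each library, as CPM on a log axis, grouped by role from the alpha ring on the left to Psmc3ip on the right. For most genes the 2 KO libraries (triangles and diamonds) sit below the 2 WT libraries (circles and squares), with KO replicate 2 lowest for 34 members and WT replicate 1 highest for 36.

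KO replicate 2 held the lowest value of 34 members and WT replicate 1 the highest of 36. KO replicate 2 was also the shallowest library and had the lowest share of counts from the ribosomal RNA gene Rn45s, 9.37% against 14.6% to 15.7% in the others; the part of this in the results was not tested, and with Rn45s left out of the table the same 5 members were called. On the log2 scale, the members' median deviation from the mean of the 4 libraries was 0.29 and 0.11 in the WT libraries and -0.11 and -0.35 in the KO libraries, replicate 1 before replicate 2. The number of calls moved when single libraries were left out. Each such fit compares 1 library with 2, so the spread comes from the group of 2 alone and the lone library is assumed to vary like it. Without WT replicate 1, and likewise without WT replicate 2, edgeR called no member (9 and 22 were lower at an unadjusted p under 0.05, DESeq2 was not run there), where 0.642% and 0.685% of all genes were still called lower. Leaving out KO replicate 1 gave 21 members lower, beside 7.88% of all genes, and leaving out KO replicate 2 gave 4, beside 2.84%. The members' median ranged from -0.29 to -0.57 over these 4 fits. Without the low count filter 16 members were lower, beside 5.59% of all genes, and with trends on gene length and GC content removed 16, beside 6.89%; with the trend on expression level removed 2 were lower, Psma1 and Psmb5, beside 1.9%.

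The alpha ring, which forms the gate of the core, had 2 called members. Psma1 was at 99.2 and 93.4 CPM in WT and at 53.6 and 56 CPM in KO, so the groups stood well apart. The means were 96.3 ± 4.11 and 54.8 ± 1.71 CPM (SD, n = 2 each), a log2 fold change, KO over WT, of -0.81 (SE 0.17, adjusted p = 0.0181 in edgeR). Psma5 was at 179 and 138 CPM in WT and 98.3 and 88.9 CPM in KO, again without overlap, and its means were 158 ± 28.9 and 93.6 ± 6.7 CPM (-0.76, SE 0.17, adjusted p = 0.027). The other 5 ring genes that all tissues use had fold changes from -0.47 for Psma7 to -0.27 for Psma3 and did not pass, with Psma2 (-0.39), Psma4 (-0.29) and Psma6 (-0.36) between them. Each had both KO libraries below both WT libraries, though for Psma3 by little, at 106 CPM in WT replicate 2 and 100.2 CPM in KO replicate 1. Psma8, the alpha subunit known from testis, was low and uneven, at 12.4 and 20.8 CPM in WT and 14.3 and 24.1 CPM in KO, and its groups overlapped.

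In the beta ring the constitutive catalytic subunits had the most negative median of all classes, -0.89 over 3 genes, of which 2 fell. Psmb5, the gene of the chymotrypsin-like site that bortezomib blocks, was at 74.4 and 71.3 CPM in WT and at 39.2 and 39.5 CPM in KO. Replicates lay close together in both groups, with means of 72.8 ± 2.14 and 39.4 ± 0.164 CPM and a fold change of -0.89 (SE 0.18, adjusted p = 0.0169). Psmb7, the trypsin-like subunit, was at 94 and 80.7 CPM in WT and at 55.7 and 34.2 CPM in KO, where the 2 libraries differed more. Its means were 87.4 ± 9.4 and 45 ± 15.2 CPM (-0.96, SE 0.23, adjusted p = 0.0328). Psmb6, the caspase-like subunit, was at 74 and 57.7 CPM in WT and at 47.7 and 44.8 CPM in KO; the groups did not overlap, but the change of -0.51 did not pass (adjusted p = 0.134). The 4 beta subunits without a catalytic site also lay lower in both KO libraries, with fold changes of -0.64 for Psmb2, -0.63 for Psmb4, -0.39 for Psmb3 and -0.35 for Psmb1, none of which passed (adjusted p from 0.0566 to 0.330 in edgeR, where DESeq2 called Psmb2 and Psmb4). In all, both KO libraries lay below both WT libraries for all 14 genes of the constitutive core, beside 27.6% of all genes. Of the 14, 4 were called lower, beside 3.01% of all genes.

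The called genes lie apart from one another in the genome (GENCODE, GRCm38): Psma1 at chr7:114264606-114276118, Psma5 at chr3:108256926-108279974, Psmb5 at chr14:54614119-54618022, Psmb7 at chr2:38588036-38644087 and Psmc4 at chr7:28041707-28050101. Because members that moved together may be compared in their control sequence, promoters are shown for the 4 called genes with an entry in the RefSeq promoter table (build GRCm38.p6), as the 250 bases before the annotated start, read 5′ to 3′ on the strand of the gene. Psma1 has its stretch on the minus strand at chr7:114276117-114276366, Psma5 on the plus strand at chr3:108256676-108256925, Psmb5 on the minus strand at chr14:54617996-54618245 and Psmc4 on the minus strand at chr7:28050093-28050342. Capitals mark a match, on either strand, to TGACNNNGC (the antioxidant response element bound by Nfe2l1 and Nfe2l2, the activators of proteasome genes), to CCAAT, to GAAANNGAA (the core of the interferon-stimulated element) or to TTCNNNGAA (the core of the gamma-activated site).
Psma1: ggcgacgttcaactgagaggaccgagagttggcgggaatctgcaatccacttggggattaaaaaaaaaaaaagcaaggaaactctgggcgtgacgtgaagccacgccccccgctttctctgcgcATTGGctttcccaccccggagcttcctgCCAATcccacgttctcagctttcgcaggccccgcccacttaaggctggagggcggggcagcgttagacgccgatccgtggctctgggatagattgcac
Psma5: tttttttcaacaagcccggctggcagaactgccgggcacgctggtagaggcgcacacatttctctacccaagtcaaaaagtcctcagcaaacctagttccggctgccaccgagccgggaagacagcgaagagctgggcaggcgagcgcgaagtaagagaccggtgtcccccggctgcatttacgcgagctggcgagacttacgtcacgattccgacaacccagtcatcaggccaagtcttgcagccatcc
Psmb5: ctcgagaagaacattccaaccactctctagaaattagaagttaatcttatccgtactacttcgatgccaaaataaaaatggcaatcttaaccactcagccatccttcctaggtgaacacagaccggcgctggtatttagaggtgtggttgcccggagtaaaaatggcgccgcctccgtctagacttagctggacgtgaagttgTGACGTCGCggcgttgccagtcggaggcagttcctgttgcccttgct
Psmc4: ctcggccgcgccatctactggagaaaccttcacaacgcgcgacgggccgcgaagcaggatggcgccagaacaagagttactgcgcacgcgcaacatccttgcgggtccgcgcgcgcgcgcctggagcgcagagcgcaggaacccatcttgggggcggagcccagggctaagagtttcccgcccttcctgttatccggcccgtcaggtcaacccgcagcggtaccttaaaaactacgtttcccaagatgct
Psmb5 held 1 antioxidant response element, starting at position -47, where -1 is the last base before the start. Psma1 held CCAAT boxes at -126 and -98, the first of them on the opposite strand, and Psma5 and Psmc4 held no match to any of the 4 motifs. No match overlapped another in these stretches. Among the 42 members with an entry, 5 held TGACNNNGC (11.9%, beside 11.5% of 27025 genes): Psmb5, Psmb6, Psmc6, Psmd9 and Psmd12. CCAAT was found in 15 (35.7%, beside 37.5%), GAAANNGAA in 3 (7.14%, beside 8.18%) and TTCNNNGAA in 2 (4.76%, beside 8.13%), of which Psmb8 was 1. These shares are descriptions of letters in this window and say nothing about binding.

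**Figure D2:**
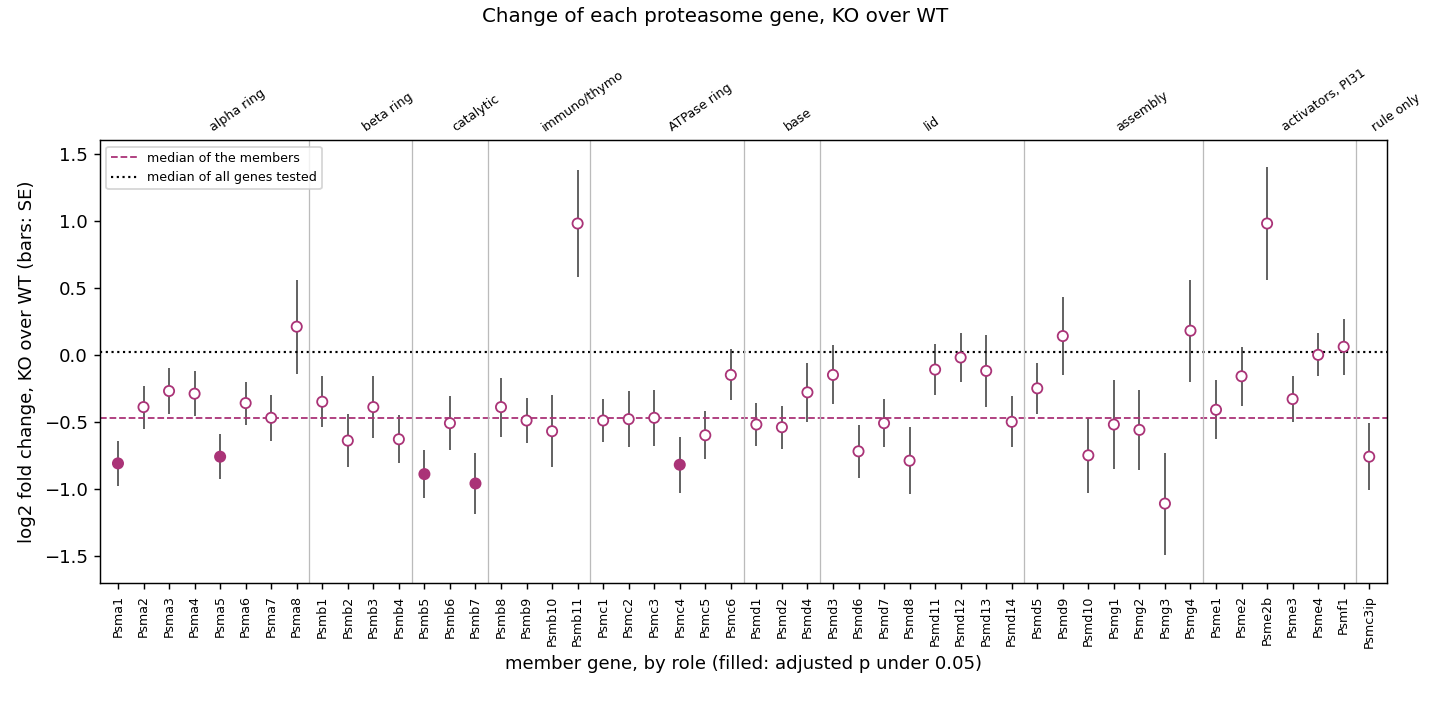
Log2 fold change of each member, KO over WT, with its standard error, grouped by role. Filled points are the 5 genes with an adjusted p under 0.05, the dashed line is the members' median of -0.47 and the dotted line the median of all genes tested, 0.02.

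In the base of the regulatory particle 1 of 9 genes was called lower in edgeR, beside 3.01% of all genes. At an unadjusted p under 0.05, 5 of 6 ATPase genes and 2 of the 3 others were lower, beside 11.4% of all genes. DESeq2 called 2 of the 6 and 2 of the 3 lower, beside 5.7% of its tested genes. Psmc4, a subunit of the ATPase ring that unfolds substrates, was at 54.9 and 45.5 CPM in WT and at 29.8 and 27.2 CPM in KO, without overlap, and its means were 50.2 ± 6.62 and 28.5 ± 1.88 CPM (-0.82, SE 0.21, adjusted p = 0.0427). The fold change stayed negative but the call was lost with upper quartile scaling (adjusted p = 0.0608), with the expression level trend removed (adjusted p = 0.0674), and without WT replicate 1, WT replicate 2 or KO replicate 2 (adjusted p = 0.369, 0.117 and 0.0695). Its partners in the ring did not pass in edgeR. Psmc5 (-0.60), Psmc1 (-0.49), Psmc2 (-0.48) and Psmc3 (-0.47) lay lower in both KO libraries, and DESeq2 called Psmc5 lower. Psmc6 overlapped at 66.1 and 52.2 CPM in WT and 51.7 and 55.1 CPM in KO. The scaffold genes Psmd1 (-0.52) and Psmd2 (-0.54) and the ubiquitin receptor gene Psmd4 (-0.28) had both KO libraries below WT without passing in edgeR. DESeq2 called Psmd1 and Psmd2 lower. For Psmd1, the largest subunit of the base, the values were 186 and 181 CPM in WT and 139.7 and 115 CPM in KO (adjusted p = 0.0701).

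The lid was uneven, and no member passed in edgeR. At an unadjusted p under 0.05, 4 of its 8 genes were lower, beside 11.4% of all genes. DESeq2 called 2 lower, beside 5.7% of its tested genes. Psmd8 (-0.79, adjusted p = 0.0792) and Psmd6 (-0.72, adjusted p = 0.0527) had the most negative fold changes; Psmd6 was at 78.2 and 65.4 CPM in WT and 38.7 and 48.6 CPM in KO. Psmd7 (-0.51) and Psmd14 (-0.50), which encode the paired metalloprotease-fold subunits of which Psmd14 removes the ubiquitin chain, also lay below WT in both KO libraries. The other 4 overlapped between groups. Psmd12 was at 118 and 89 CPM in WT and 99.9 and 104 CPM in KO, and Psmd11 at 78.6 and 81.2 CPM in WT and 85.7 and 62.6 CPM in KO, with fold changes of -0.02 and -0.11. Psmd3 (-0.15) and Psmd13 (-0.12) were likewise close to 0. All of these but Psmd7 and Psmd14 are scaffold subunits with the PCI domain.

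Among the assembly factors no gene passed in edgeR or DESeq2. At an unadjusted p under 0.05, 2 of 7 were lower, beside 11.4% of all genes. Psmg3, a chaperone of the alpha ring, had the most negative fold change of all members, at 13.5 and 9.26 CPM in WT and 5.65 and 4.93 CPM in KO (-1.11, SE 0.38, adjusted p = 0.0985). Its partner Psmg4 went the other way in 1 library, at 13.7 and 11.5 CPM in WT and 19.7 and 8.74 CPM in KO, so that its fold change of 0.18 averages values on both sides of WT. The heterodimer partners Psmg1 (-0.52) and Psmg2 (-0.56) overlapped between groups. Of the chaperones of the base, Psmd10 (gankyrin, an X-linked gene) was at 33.2 and 21.6 CPM in WT and 16.5 and 16 CPM in KO (-0.75, adjusted p = 0.127), Psmd5 had a fold change of -0.25 and Psmd9 one of 0.14.

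Pomp, the maturation factor that brings in the beta subunits and is not named after the family, was also lower, from 174 and 147 CPM in WT to 98.3 and 81.7 CPM in KO (-0.83, adjusted p = 0.017). It belongs to a list of 11 proteasome partners in the table, with a median of -0.31. In edgeR, Pomp and the thioredoxin-like subunit gene Txnl1 (-0.60, adjusted p = 0.0417) fell and none rose. Among all genes tested, 3.01% were called lower and 3.77% higher. At an unadjusted p under 0.05, 3 of the 11 were lower, beside 11.4% of all genes. DESeq2 called 2 lower, beside 5.7% of its tested genes. The deubiquitinase genes Uchl5 (-0.47) and Usp14 (-0.31), the receptor gene Adrm1 (-0.27) and Akirin2 (-0.34), which helps to import proteasomes into the nucleus, did not pass. AI314180, the proteasome adaptor and scaffold gene, had 213 CPM in each WT library and 254 and 253 CPM in KO, a fold change of 0.25 that did not pass either (adjusted p = 0.297).

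The immunoproteasome genes were not called, and they differed from library to library. Psmb8, the exchange partner of Psmb5, was at 126 and 103 CPM in WT and 108 and 66.3 CPM in KO, so KO replicate 1 lay within the range of WT and KO replicate 2 below it (-0.39, SE 0.22, adjusted p = 0.303). Psmb9, the partner of Psmb6, was at 162 and 145 CPM in WT and 123 and 95.5 CPM in KO (-0.49, adjusted p = 0.105). Psmb10, the partner of Psmb7, was at 41.4 and 29.1 CPM in WT and 27.9 and 19.7 CPM in KO (-0.57, adjusted p = 0.221). All 3 had their lowest value in KO replicate 2, and without KO replicate 1 both Psmb8 and Psmb9 were called lower, with KO replicate 2 as the only KO library. DESeq2 called none of them, and 1, Psmb9, had an unadjusted p under 0.05. Psmb11, the catalytic subunit of the thymus, was near the low end at 4.2 and 4.75 CPM in WT and 8.32 and 9.35 CPM in KO, and its fold change of 0.98 did not pass (SE 0.40, adjusted p = 0.153).

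Levels per kilobase of the principal transcript allow the exchange pairs to be compared. The ratio of Psmb8 to Psmb5 was 0.934 and 0.797 in WT and 1.52 and 0.927 in KO, so the high value came from KO replicate 1 and the groups overlapped. For Psmb10 to Psmb7 it was 0.39 and 0.319 in WT and 0.442 and 0.509 in KO, a log2 difference of 0.43 without overlap. For Psmb9 to Psmb6 it was 1.29 and 1.48 in WT and 1.52 and 1.26 in KO, with no difference of the means on the log2 scale (0.00). With 2 libraries against 2, a two-sided exact permutation test cannot give a p below 0.333, and the 3 ratios gave 0.667, 0.333 and 1 in that order; after Benjamini-Hochberg adjustment over the 5 ratios computed each was 1. The 3 immunoproteasome genes made up 47.1% and 46.5% of the 6 catalytic transcripts per kilobase in WT and 54.1% and 49.4% in KO.

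**Figure D3:**
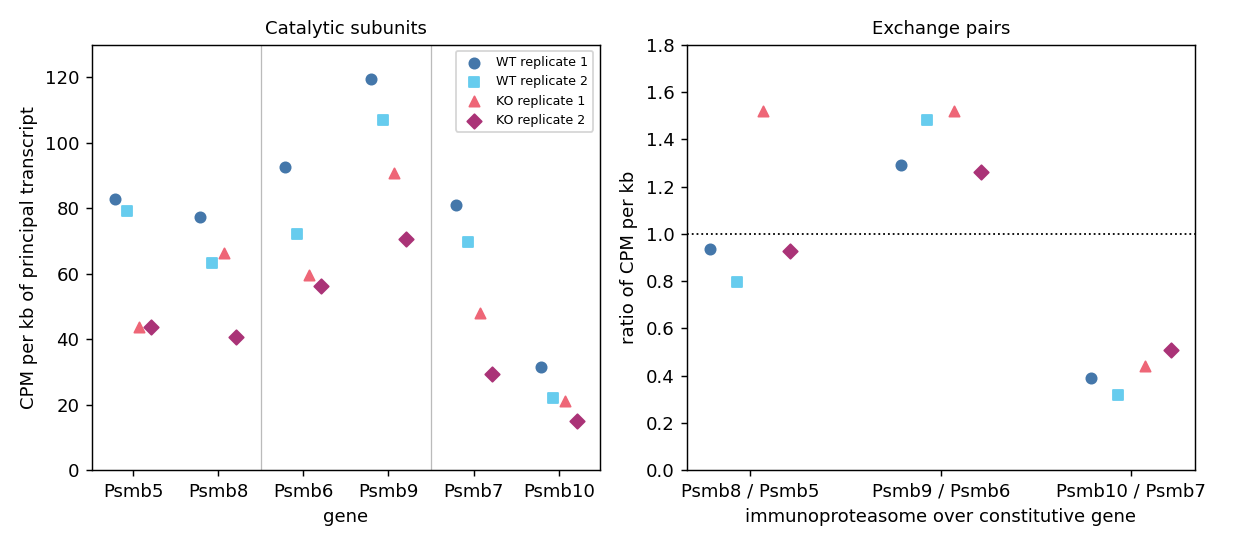
Left, level of the 6 exchangeable catalytic genes in each library, as CPM per kb of the principal transcript; right, ratio of each immunoproteasome gene to its constitutive partner, where the dotted line marks equal levels. Psmb5 stands apart between the groups, while the Psmb8 ratio is high in KO replicate 1 alone, at 1.52.

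Activators and the inhibitor that cap the core in place of the regulatory particle were uncalled in edgeR and DESeq2, with Psme2b alone at an unadjusted p under 0.05. Psme1, the alpha chain of PA28 and the most abundant member, was at 436 and 445 CPM in WT and 422 and 239 CPM in KO, so KO replicate 1 lay close to WT and KO replicate 2 far below (-0.41, adjusted p = 0.267). It was called lower without KO replicate 1, where KO replicate 2 stood alone against the WT pair. Its partner Psme2 was at 65.8 and 48.6 CPM in WT and 44.3 and 58 CPM in KO, with overlapping groups (-0.16). The nuclear activator gene Psme3 was at 273 and 219 CPM in WT and 219 and 170.4 CPM in KO (-0.33, adjusted p = 0.263). Psme4, which encodes PA200, was at 103 and 106 CPM in WT and 97.7 and 112 CPM in KO, and Psmf1, which encodes the inhibitor PI31, at 34.1 and 33.9 CPM in WT and 36.4 and 34.5 CPM in KO; their fold changes were 0.00 and 0.06. Psme2b, a single-exon copy of Psme2, was at 4.67 and 4.07 CPM in WT and 6.78 and 10.5 CPM in KO (0.98, adjusted p = 0.179), and its reads are uncertain because they may be shared with Psme2.

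Subunits that are needed in equal numbers were not at equal transcript levels. Per kilobase of the principal transcript, the 7 alpha ring genes other than Psma8 ran from 37.8 (Psma2) to 189 CPM per kb (Psma7) in WT, with a median of 80.2, and the 7 constitutive beta ring genes from 35.5 (Psmb1) to 121 CPM per kb (Psmb2), with a median of 81. The ATPase ring ran from 26.5 (Psmc6) to 72.8 CPM per kb (Psmc5) with a median of 39.2, the lid from 11.8 (Psmd13) to 64.6 CPM per kb (Psmd7) with a median of 40.9, and the assembly factors were lowest, from 6.7 (Psmd9) to 34.6 CPM per kb (Psmg1) with a median of 19.2. In KO the medians in the same order were 65.4, 49, 28.2, 28.8 and 11.6 CPM per kb. Psma7 and Psmb2 headed their rings in both groups, and Psma2 and Psmb1 stood last in both. A gene with a long annotated transcript that the cells do not use reads too low on this scale.

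The genes around the proteasome were mixed. Of 11 regulators of proteasome genes none was called in edgeR, beside 6.78% of all genes. At an unadjusted p under 0.05, 1 was higher and none lower, beside 13.1% and 11.4% of all genes. DESeq2 called none, where 5.7% of its tested genes were lower and 6% higher. Nfe2l1, the transcription factor that raises subunit genes when the proteasome is short, was at 112 and 98.6 CPM in WT and 88.8 and 82.4 CPM in KO (-0.30, adjusted p = 0.290), and Keap1, which holds Nfe2l2 in check, had a fold change of -0.51 (adjusted p = 0.272). For the immunoproteasome, the class I transactivator gene Nlrc5 was at 19.9 and 25.4 CPM in WT and 36.2 and 36.4 CPM in KO (0.68, adjusted p = 0.103). Its groups did not overlap, and its part in the immunoproteasome values was not tested.

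Of 15 genes of ubiquitin, its activating enzymes and its shuttles, 14 had a negative fold change, beside 48.8% of all genes. Ubb fell, from 150 and 131 CPM in WT to 85.4 and 81.1 CPM in KO (-0.76, adjusted p = 0.020 in edgeR). Uba1, the main activating enzyme (-0.47, adjusted p = 0.0755), and the shuttle genes Ubqln1 (-0.50, adjusted p = 0.098) and Ubqln4 (-0.55, adjusted p = 0.100) did not pass. The list median was -0.41. Of 11 genes of class I antigen presentation none was called in edgeR. At an unadjusted p under 0.05, 4 were lower, beside 11.4% of all genes, and DESeq2 called 1. The median was 0.05, with negative values for the endoplasmic reticulum chaperones Pdia3 (-0.55, adjusted p = 0.0613) and Canx (-0.44, adjusted p = 0.0993) and for B2m (-0.35) and Erap1 (-0.36). The transporter gene Tap1, whose exons overlap those of Psmb9 on the other strand by 212 bases, was at 65 and 59.2 CPM in WT and 69.2 and 88.1 CPM in KO.

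Other large complexes had medians in the same range. The COP9 signalosome and the translation initiation factor eIF3 share the fold of the lid subunits, and the CCT chaperonin is another ring complex of growing cells. The median log2 fold change was -0.36 over 9 signalosome genes, -0.28 over 12 eIF3 genes and -0.51 over 8 CCT genes, beside -0.49 for the constitutive core and -0.49 for the ATPase ring, base and lid together. Neither the signalosome nor eIF3 had a called gene in edgeR (1 and 3 genes were lower at an unadjusted p under 0.05, and DESeq2 called none and 1), and CCT had 1, Tcp1 (-0.56, adjusted p = 0.0384). Of the 8 CCT genes, 7 were lower at an unadjusted p under 0.05, and DESeq2 called 5. Among all genes, 11.4% were lower at that unadjusted p, and DESeq2 called 5.7% of its tested genes lower. Whether the proteasome genes differ from these complexes was not tested.

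**Figure D4:**
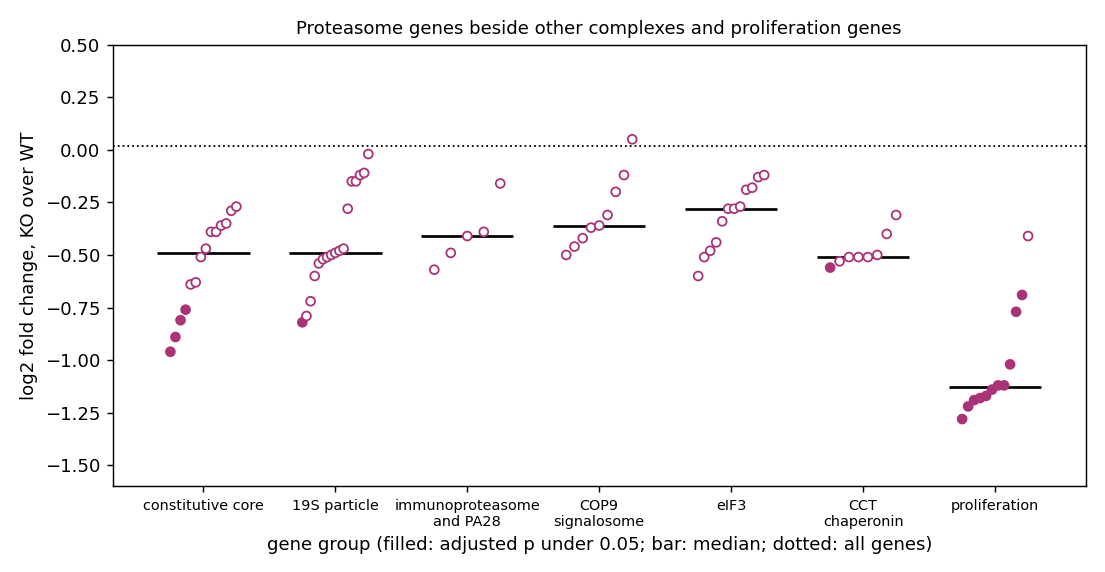
Log2 fold change, KO over WT, of the genes in 3 proteasome groups, 3 other complexes and a list of proliferation genes; each point is a gene, filled where the adjusted p was under 0.05, bars are medians and the dotted line is the median of all genes tested. The proteasome medians (-0.49, -0.49 and -0.41) lie near that of CCT (-0.51), and proliferation genes lie lower (-1.13).

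Proliferation genes and markers of several other cell types also differed between the groups. Among all genes tested, 3.01% were called lower and 3.77% higher. Of 12 proliferation genes 11 were lower in KO, with a summed level of 3553 and 3628 CPM in WT and 2099 and 2177 CPM in KO and Top2a at -1.12. B lineage markers summed to 384 and 474 CPM in WT and 98.9 and 74.8 CPM in KO (7 of 9 lower), dendritic cell markers to 138 and 139.8 CPM in WT and 1052 and 872 CPM in KO (8 of 10 higher), and mast cell markers to 17.5 and 15.2 CPM in WT and 176 and 106 CPM in KO (5 of 6 higher). Of neutrophil markers 4 of 6 were higher, of monocyte and macrophage markers 3 of 7 and of erythroblast markers 1 of 3 tested. These lists summed to between 20 and 459 CPM in WT and between 182 and 819 CPM in KO. T cell markers summed to between 26.6 and 29.7 CPM, most of it Cd4 (28.9 and 25.8 CPM in WT, 24.4 and 24.7 CPM in KO). Cd8a was at 0.754 and 0.644 CPM in WT and 1.04 and 1.83 CPM in KO and was not called. Cd3e and Cd3g, too low to test, had both KO libraries above WT. Of 9 LSK markers Cd34 was lower (-0.61, adjusted p = 0.0408). In bulk RNA, fewer cells of a type and less RNA per cell cannot be told apart, and the part of these shifts in the proteasome values was not tested.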

How the data were processed

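RNA-seq of sorted LSK cells from 2 WT and 2 KO samples was used as 1 table of raw read counts per gene symbol, deposited by the authors with no normalization. The submitters' processing notes name HTSeq 0.8.0, Picard 2.9.4, TopHat2 2.1.1 and SAMtools 1.5, with build mm10. Per the labels' protocols, 20 ng of RNA entered the NuGEN Ovation Ultralow kit, and reads had 76 cycles. Not given in the sources used here are the annotation, the strand setting and the handling of duplicates.

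Groups and replicate numbers came from the sample titles. Counts were tested with edgeR 4.0.16 (R 4.3.3): TMM factors, filterByExpr (minimum count 10, minimum total 15), quasi-likelihood test of KO against WT without covariates, and Benjamini-Hochberg adjustment over all 14140 genes tested, at a threshold of 0.05. The step was run on simulated counts, where the recovery of folds as small as those of the called members was not tested. The standard error is the fold change divided by the root of the F statistic. Levels are CPM of TMM-scaled libraries. Members, classes and gene lists were chosen with earlier results of these data known. Library values are given for called members, the catalytic subunits, Psme1 and Psme2. For some extremes of a class, such as Psmb2, Psmd2 and Psmd8, no library values are given. Up to 4 genes of each list are named by p. Other genes were chosen after their values were seen. Positions and lengths came from GENCODE M21 (GRCm38), where 23376 symbols matched directly, 668 by synonym and 377 not; the principal transcript is the longest of the best APPRIS class. Promoters came from RefSeq, and 42 members matched.

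Alternatives were a DESeq2 1.42.0 test, other scaling factors, no filter or one with minimum count 50, removal of trends on expression level or on length and GC content, leaving out Rn45s, leaving out each library, and a replicate block.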

Additional observations from a re-analysis of the deposited data

How the results depend on the processing

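The members' median log2 fold change was negative in the main fit and under all 13 alternatives; it was -0.29 to -0.57 when a library was left out, with -0.29 when WT replicate 1 and -0.32 when KO replicate 2 was the one left out. The number of members called lower, 5 in the main fit, was 13 with DESeq2, 16 with no low count filter, 16 with length and GC trends removed, 2 with the expression level trend removed (Psma1 and Psmb5), and 0 to 21 when a library was left out. No alternative called a member higher. Of the 5, Psma1 and Psmb5 passed in 11 of the 13 alternatives, Psma5 in 10, Psmb7 in 9 and Psmc4 in 8, with adjusted p up to 0.369. With upper quartile factors Psmc4 missed the threshold (adjusted p = 0.0608). For all genes, 425 lower and 533 higher became 816 and 858 with DESeq2, 987 and 1056 with no filter, 268 lower with the expression level trend removed and 966 lower with length and GC trends removed; leaving out a library gave 95 to 1161 lower and 160 to 997 higher. Of all calls 55.6% were higher, against 69.7% with upper quartile factors and 32% with length and GC trends removed, where the median of all genes was 0.10 and -0.12; relative to it the members' median was -0.49 and -0.46, as against -0.49 in the main fit.

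With the replicate number as a replicate block, 23 members were lower, and 1314 genes (9.29%) were lower and 1312 (9.28%) higher; the correlation of same-numbered libraries' deviations was 0.076 and the samples share only a number, so this fit is not used elsewhere.

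Signs turned only for members near 0, none of them called on either side: Psma8 ranged from -0.22 to 0.62 when a library was left out, Psmc6 from -0.32 to 0.03, Psmd11 from -0.36 to 0.09, Psmd13 from -0.44 to 0.12, Psmd3 from -0.38 to 0.03, Psmd9 from -0.11 to 0.41, Psmd12 from -0.23 to 0.19, Psme2 from -0.38 to 0.07, Psme4 from -0.11 to 0.09 and Psmg4 from -0.53 to 0.64. Psmd12 was 0.06 with upper quartile factors, 0.01 with the stricter filter and 0.09 with the expression level trend removed. Psme4 was -0.01 with DESeq2 and with no filter and 0.00 with DESeq2's size factors. With length and GC trends removed Psme4 was -0.10, Psmf1 -0.07 and Psmg4 -0.18. The cause of these changes was not tested. Only 2 libraries a group limit what could be called.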

Other observations

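Some members are close neighbours in the genome, and their values are given here side by side. Psmb5 and Psmb11 lie 3410 bases apart on chromosome 14, and Psmb5 was 1.85-fold lower while Psmb11 was at 4.2 and 4.75 CPM in WT and 8.32 and 9.35 CPM in KO. Psme1 and Psme2, which encode the chains of PA28 and lie 5911 bases apart on the same chromosome, differed in how they varied within each pair of replicates: the ratio of Psme1 to Psme2 per kilobase was 5.72 and 7.92 in WT and 8.25 and 3.57 in KO. Psmb8 and Psmb9 lie 9956 bases apart on chromosome 17, and both were lowest in KO replicate 2.

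The fold change of all genes ran with expression level. Its median was 0.46 over 4926 genes under 10 CPM, -0.04 over 5152 genes from 10 to 50 CPM, -0.10 over 2007 genes from 50 to 100 CPM and -0.12 over 1854 genes from 100 to 500 CPM. The members' medians in the same ranges were 0.98 over 3 genes, -0.39 over 15, -0.50 over 20 and -0.40 over 12.

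Some called members share exon sequence with another gene, and reads there cannot be told apart without strand: Psmb7 overlaps Nek6 on the other strand by 405 bases, and Psma5 overlaps an antisense transcript by 60 bases. Psmb5 shares 109 bases of its exons with the miRNA gene Mir686 on the same strand, where strand would not separate the reads.

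Psmc3ip, which the symbol rule takes in although its protein works in homologous recombination, was at 32.3 and 31 CPM in WT and 21.1 and 16.4 CPM in KO, a fold change of -0.76 on the log2 scale (adjusted p = 0.0906 in edgeR). DESeq2 called it lower, as 1 of its 13 members.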
